A study of Mus musculus with 4 samples.

Results

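Transcripts of 10 factors that act with elongating RNA polymerase II were examined in splenic regulatory T (Treg) cells with and without Setd2. They were Polr2a, Supt6, Supt16, Iws1, Ctr9, Paf1, Cdc73, Leo1, Cdk9 and Cdk12, chosen by name, with earlier results of these data known, out of 24087 genes in the table. All 10 were found, and all 10 passed the filter of at least 1 FPKM (fragments scaled by gene length and library total) in at least 2 libraries, as did 11399 genes in all. KO cells were from Foxp3Cre-YFPSetd2f/f mice, and CTRL cells were from littermates of the genotype Foxp3Cre-YFPSetd2f/+, which had lost no more than 1 Setd2 allele in the same cells. All mice were C57BL/6, untreated, and carried the Foxp3Cre-YFP allele, so that deletion began only once a cell had switched on Foxp3. The labels give no age. There were 2 libraries per genotype, named here CTRL 1, CTRL 2, KO 1 and KO 2, each from about 1000000 CD3+CD4+YFP+ cells pooled from 2 mice.

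Setd2 places the trimethyl mark on lysine 36 of histone H3 (H3K36me3) while it rides on the polymerase that is reading through a gene. It binds the tail of the largest polymerase subunit, Polr2a, after that tail has been phosphorylated by kinases such as Cdk9 and Cdk12. Supt6 and Iws1 travel with the same polymerase, and the PAF complex (Paf1, Ctr9, Cdc73 and Leo1) rides beside them. Supt16 is a subunit of FACT, which takes nucleosomes apart ahead of the polymerase and puts them back behind it.

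The libraries were even in depth, but not in the number of genes above 0. Summed FPKM ran from 465594 to 472830, and the reads behind it numbered at least 29984837 in the shallowest library and 32683452 in the deepest. The shallowest, CTRL 1, nevertheless listed 19100 genes above 0. Each of the other libraries listed fewer, from 15913 (CTRL 2) up to 16410 (KO 1). The cause of this excess was not tested. Setd2 itself was at 23.4 and 25.3 FPKM in CTRL 1 and 2 and at 21.3 and 19.5 FPKM in KO 1 and 2, a log2 fold change of -0.24 with an adjusted p of 0.0970 (limma, Benjamini-Hochberg). Its direction went with the labels without passing the threshold of 0.05, and these values cover the whole gene rather than the floxed part. The 8 T and Treg cell markers, Foxp3 and Cd3e among them, had 74.2 FPKM or more in each library, and none of the 8 passed the test. Summed B cell markers were at 18.5 to 22.0 FPKM in CTRL and 18.7 to 32.4 in KO, and summed myeloid markers at 103 to 173 in CTRL and 84.4 to 239 in KO. Both sums were higher in CTRL 1 and KO 1 than in the other two libraries, and so were the summed erythroid markers, at 4.16 to 22.7 FPKM in CTRL and 11.4 to 38.5 in KO. CD8 T cell markers summed to 8.49 to 11.4 FPKM and NK cell markers to 2.41 to 3.19 over the 4 libraries. Among these markers, Hbb-bs was listed at 0 in 3 of the 4 libraries and S100a8 in CTRL 2.

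All 10 factors were expressed, over a range from Iws1 to Polr2a. FPKM is per length, so the levels were ranked against each other. The lengths behind the FPKM are not given, so the order rests on lengths that could not be checked, that of Cdc73 among them. In CTRL the order of mean FPKM was Polr2a, Paf1, Cdk9, Supt6, Supt16, Cdc73, Cdk12, Ctr9, Leo1 and Iws1. Polr2a, at 52.6 ± 2.95 FPKM (SD, n = 2), exceeded 87.1% of the genes tested, and Iws1, at 7.91 ± 0.444 FPKM (SD, n = 2), exceeded 36.4% of them. Polr2a and Paf1 overlapped between the CTRL libraries, as did Supt16 and Cdc73, so those neighbours cannot be ordered. In KO the order was the same but for Ctr9, which stood above Cdk12, and the KO libraries of Cdk12 and Leo1 overlapped. The sum over the 10 transcripts was 244 and 236 FPKM in CTRL 1 and 2 and 252 and 258 FPKM in KO 1 and 2.

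**Figure D1:**
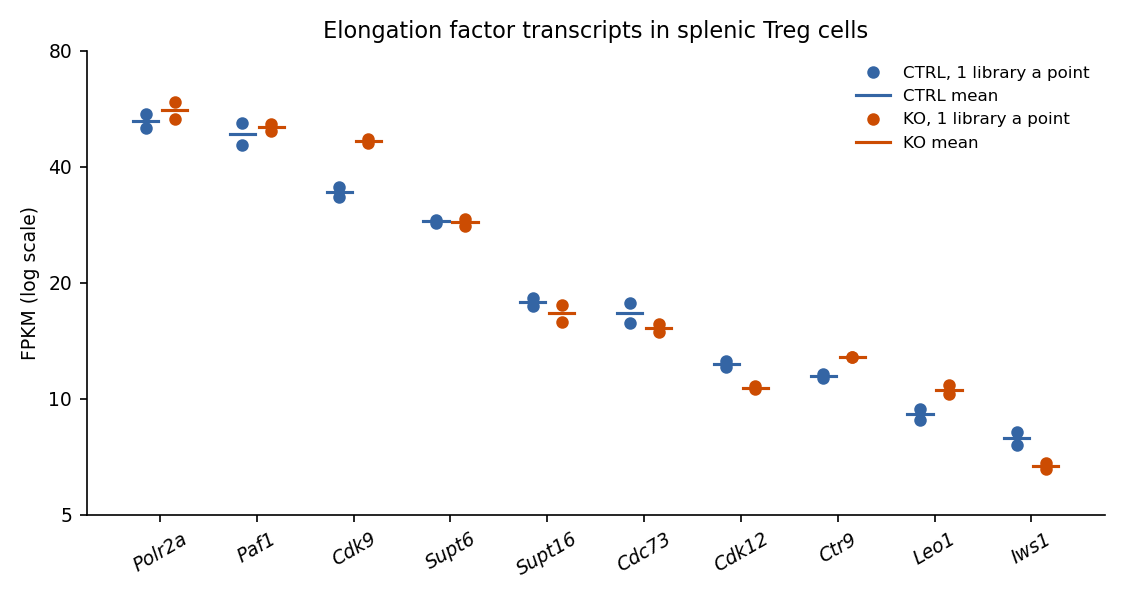
FPKM (log scale) of each of the 10 elongation factors in the 4 libraries, with CTRL in blue and KO in orange; points are libraries and bars are the means of 2. The genotypes stand clearly apart for Cdk9, near 34.5 FPKM in CTRL and 46.6 FPKM in KO, while the values of Supt6 and Paf1 overlap.

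To ask whether loss of Setd2 went with changed transcripts of the machinery it works with, KO was compared with CTRL. Cdk9 was higher in KO, and it was the only 1 of the 10 factors past the threshold (limma, Benjamini-Hochberg adjusted p under 0.05). Of all 11399 genes tested, 5.10% were called higher and 4.65% lower, and none of the 10 factors was called lower. Both KO libraries lay above both CTRL libraries for Cdk9, Ctr9 and Leo1, a pattern that 29.0% of all genes tested shared. The KO libraries were both under both CTRL libraries for Iws1, Cdk12 and Cdc73, a pattern shared by 35.5% of all genes. The shares of the 10 factors that were called or did not overlap are thus near those of genes at large. The median log2 fold change of the 10 was 0.02, beside -0.02 for all genes tested, with 5 factors above 0 and 5 below. After quantile normalization the median of the 10 was -0.0074.

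**Figure D2:**
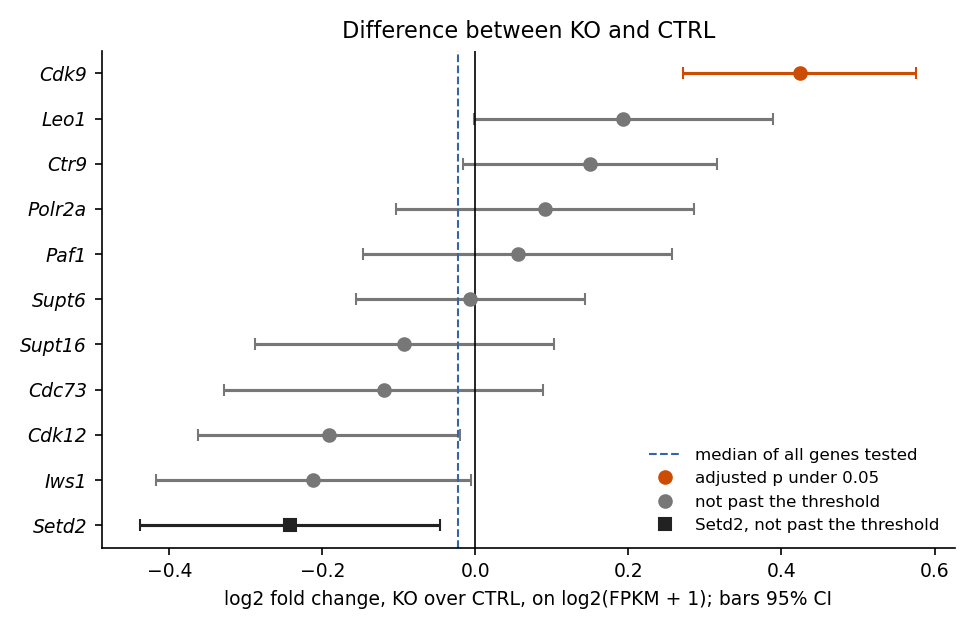
Log2 fold change of KO over CTRL on the log2(FPKM + 1) scale for the 10 factors and for Setd2, with 95% confidence intervals from limma and a dashed line at the median of all genes tested. Cdk9 at 0.42 lies apart from the other factors, which run from -0.21 for Iws1 to 0.19 for Leo1.

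Cdk9 is the kinase of P-TEFb, which releases paused polymerase into the gene body by phosphorylating the polymerase tail and the pausing factors. The gene (ENSMUSG00000009555) lies on chromosome 2, 32705784 to 32713076 on the minus strand (GRCm38). It stood at 35.5 FPKM in CTRL 1 and 33.5 FPKM in CTRL 2, and at 47.1 FPKM in KO 1 and 46.1 FPKM in KO 2, with at least 3931 reads behind each value. The KO libraries were close to each other and both stood well above the CTRL libraries. The KO mean was 35.1% above the CTRL mean, which gave a log2 fold change of 0.42 (standard error 0.0594, 95% interval 0.27 to 0.58, adjusted p = 0.0351, limma). The call was lost when all genes above 0 were tested (adjusted p = 0.0860) and when any library was left out, with log2 fold changes of 0.46 without CTRL 1 (adjusted p = 0.129, limma), 0.38 without CTRL 2 (0.140), 0.41 without KO 1 (0.122) and 0.44 without KO 2 (0.107). Mir2861 and Mir3960 overlap Cdk9 on the same strand.

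Cdk12, which partners with cyclin K and phosphorylates serine 2 of the polymerase tail in the bodies of long genes, lay on the other side. Its values were 12.1 FPKM in CTRL 1, 12.6 FPKM in CTRL 2, 10.8 FPKM in KO 1 and 10.6 FPKM in KO 2. The genotypes did not overlap, but the log2 fold change of -0.19 (95% interval -0.36 to -0.02) did not pass the threshold, with an adjusted p of 0.118 (limma). The gene spans 75446 bp on chromosome 11, 98203059 to 98278504 on the plus strand, and holds Mir5119. Within a library, the FPKM of Cdk9 was 2.93 and 2.66 times that of Cdk12 in CTRL 1 and 2 and 4.37 and 4.35 times in KO 1 and 2. The ratio, given as a description, was thus higher in both KO libraries, and it combines a called rise with a difference that was not called.

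The partners of both kinases are shown for context, and were picked after their values had been seen. Ccnt1, a cyclin T subunit of P-TEFb, had 17.5 and 18.7 FPKM in CTRL, against 23.1 and 17.8 in KO, so its KO libraries lay on either side of CTRL 2. Ccnt2, the other cyclin T, had 30.4 and 28.8 FPKM in CTRL, against 25.0 and 26.0 in KO (log2 fold change -0.21, adjusted p = 0.0888, limma). Relative to Ccnt2, Cdk9 stood at 1.17 and 1.16 in CTRL 1 and 2 and at 1.88 and 1.77 in KO 1 and 2. Ccnk, the cyclin of Cdk12, had 35.5 and 37.7 FPKM in CTRL, against 43.3 and 43.0 in KO (log2 fold change 0.23, adjusted p = 0.0660, limma). Neither cyclin T nor cyclin K passed the threshold, although the libraries of the genotypes did not overlap for Ccnt2 and Ccnk.

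Polr2a, the largest subunit of RNA polymerase II and the one whose tail Setd2 binds, did not differ beyond the spread between libraries. It was at 50.5 and 54.7 FPKM in CTRL 1 and 2 and at 53.3 and 58.8 FPKM in KO 1 and 2, and KO 1 lay below CTRL 2. The log2 fold change was 0.09 with a 95% interval of -0.10 to 0.29 and an adjusted p of 0.444 (limma). With at least 9607 reads in each library, it was the most deeply covered of the 10. The other 12 polymerase subunits and associated proteins listed, Polr2b to Polr2m, were all tested, and 1 rose, 0 fell and 11 did not pass. The share called, 8.33%, was near the 9.75% of all genes tested. Polr2f, a small subunit shared by the nuclear polymerases, rose from 47.3 and 51.0 FPKM to 60.3 and 63.2 FPKM (log2 fold change 0.32, adjusted p = 0.0462, limma). The median log2 fold change of the 12 was 0.09, with 11 of the 12 above 0, or 9 of the 12 after quantile normalization. Of all 11399 genes tested, 5271 were above 0.

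The PAF complex, which couples the polymerase to histone modification, split in direction between its subunits without any of the 4 passing the threshold. Only Cdc73 lay below 0, and it stood at 0.032 with the length trend removed and at 0.048 with the GC trend removed. Paf1, which gives the complex its name, was at 51.9 and 45.7 FPKM in CTRL 1 and 2 and at 51.7 and 49.5 FPKM in KO 1 and 2. The KO libraries lay inside the CTRL range (log2 fold change 0.055, with a 95% interval of -0.15 to 0.26 and an adjusted p of 0.660, limma). Ctr9, a scaffold of the complex, had 11.6 and 11.3 FPKM in CTRL, against 12.8 and 12.9 in KO. Those groups did not overlap, and the KO libraries differed by little, but the log2 fold change of 0.15 (95% interval -0.02 to 0.32) had an adjusted p of 0.175 (limma).

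Leo1, the subunit with the fewest reads of the 10 factors (at least 669 to 845 a library), had 9.43 and 8.81 FPKM in CTRL, against 10.3 and 10.9 in KO. Its log2 fold change of 0.19 (95% interval -0.0021 to 0.39) had an adjusted p of 0.147 (limma). Cdc73, also known as the tumour suppressor parafibromin, had 17.7 and 15.7 FPKM in CTRL, against 14.9 and 15.6 in KO. CTRL 2 and KO 2 nearly touched, and the log2 fold change of -0.12 (95% interval -0.33 to 0.09) had an adjusted p of 0.349 (limma). Part of the exons of Cdc73, 3.67% of its stretches of 100 bases, matched other genes such as the overlapping B3galt2. The ratio of Ctr9 to Cdc73 was 0.657 and 0.721 in CTRL 1 and 2 and 0.860 and 0.823 in KO 1 and 2, and that of Leo1 to Cdc73 0.533 and 0.561 in CTRL and 0.689 and 0.695 in KO. Both ratios were higher in both KO libraries. Leo1 over Paf1 was higher too, at 0.182 and 0.193 in CTRL and 0.199 and 0.220 in KO. Ctr9 over Paf1 overlapped between the genotypes at 0.224 and 0.248 in CTRL and 0.248 and 0.260 in KO. These ratios are descriptions, and how often ratios of other genes stand apart was not tested.

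Among the histone chaperones, Supt6 differed by less than the spread between libraries. It binds the phosphorylated polymerase, and it was at 29.1 and 28.6 FPKM in CTRL 1 and 2 and at 28.1 and 29.4 FPKM in KO 1 and 2. The CTRL libraries lay within the KO range, and the log2 fold change was -0.01 with a 95% interval of -0.16 to 0.14 (adjusted p = 0.944, limma). Its sign turned after median-ratio scaling, at 0.017. In folds of FPKM + 1, this interval runs from 0.897 to 1.10. Iws1, a partner of Supt6 that has been tied to the recruitment of Setd2, had 8.22 and 7.60 FPKM in CTRL, against 6.80 and 6.58 in KO. The genotypes did not overlap, and the log2 fold change of -0.21, the lowest of the 10 factors, had a 95% interval of -0.42 to -0.01 and an adjusted p of 0.136 (limma). Supt6 over Iws1 was 3.54 and 3.77 in CTRL 1 and 2 and 4.13 and 4.46 in KO 1 and 2.

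Supt16, the large subunit of FACT, had 18.2 and 17.4 FPKM in CTRL, against 15.8 and 17.5 in KO. KO 2 lay above CTRL 2, and the log2 fold change of -0.09 (95% interval -0.29 to 0.10) had an adjusted p of 0.435 (limma). Rpgrip1 runs over Supt16 on the other strand, and 18.0% of the 100-base stretches of Supt16 exons were shared with it. The use of strand in the counting is not given in the sources used here, so reads from both genes may not be separable. Its FACT partner Ssrp1, picked after its values had been seen, had 71.9 and 67.5 FPKM in CTRL, against 77.2 and 77.1 in KO (log2 fold change 0.15, adjusted p = 0.148, limma).

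Fold change was also set beside exon length. In the GENCODE annotation, Cdc73, Cdk12 and Iws1 had the most summed exon length of the 10, at 17613, 11730 and 11083 bp. They were the 3 factors lower in both KO libraries than in either CTRL library. The lengths behind the FPKM are not given and may differ from these. In CTRL 1, Cdc73 had at least 1554 reads at 17.7 FPKM, and Cdk12 at least 3459 reads at 12.1 FPKM. Cdc73 may thus have been counted over a shorter length than Cdk12, and its place by length is uncertain. Over all genes tested, the median log2 fold change was 0.04 for 1969 genes under 2000 bp, 0.01 for 4790 genes from 2000 bp to under 5000 bp, -0.05 for 3624 genes from 5000 bp to under 10000 bp and -0.12 for 992 longer genes. With each library's trend along the annotated exon length removed, the log2 fold change became 0.03 for Cdc73, -0.09 for Cdk12 and -0.11 for Iws1. The part of length in these differences was not tested. Cdk9, with 4611 bp, was at 0.44 with the trend removed, as large as without that step, and kept its call (adjusted p = 0.0364, limma).

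**Figure D3:**
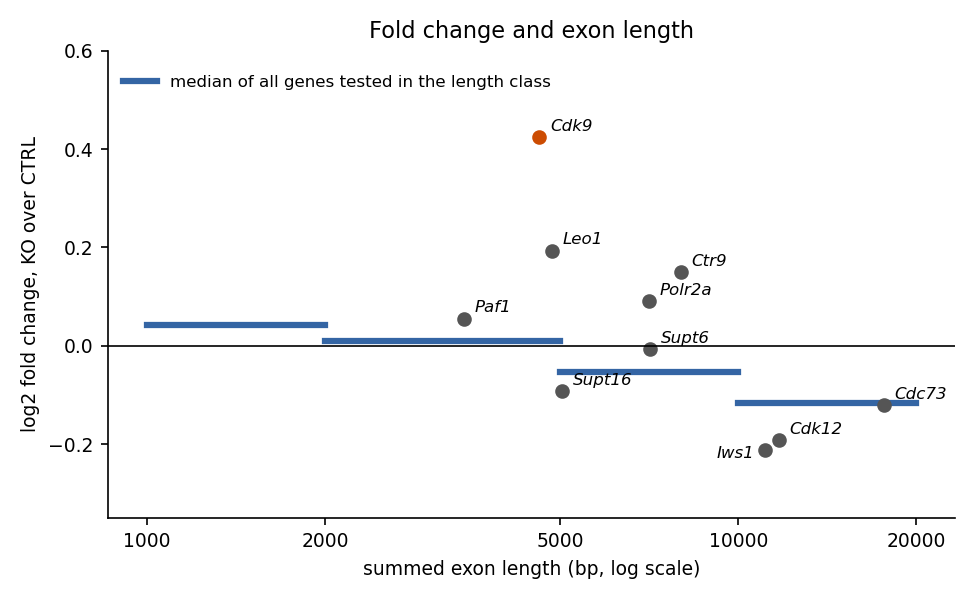
Log2 fold change of KO over CTRL on the log2(FPKM + 1) scale against summed exon length (bp, log scale) for the 10 factors, with blue bars at the median of all genes tested in each length class (the shortest and the longest class are cut at the axis limits). Cdc73, Cdk12 and Iws1 lie at the long end, near or below the bar at -0.12, and Cdk9 stands above the bar of its class. Lengths are those of the GENCODE annotation, and the length behind the FPKM of Cdc73 may be shorter.

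The other genes of the elongation pathway, 74 in 10 lists, showed few calls. Of the 70 tested, 4 rose, 1 fell and 65 did not pass. The share called was 7.14%, beside 9.75% of all genes tested, and the median log2 fold change was 0.03. Supt4a, the small subunit of the pausing and elongation factor DSIF, rose most, from 124 and 127 FPKM in CTRL 1 and 2 to 225 and 221 FPKM in KO 1 and 2 (log2 fold change 0.82, adjusted p = 0.0299, limma). It is near-identical in part to Supt4b, with which it shares 6.73% of its 100-base stretches. That is not a share of reads, and the treatment of multi-mapped reads is not given. The size of the uncertainty in its level is thus not known. The other 5 NELF and DSIF genes did not pass. Elob, the ubiquitin-like subunit of the elongin complex, rose from 199.6 and 193 FPKM to 314 and 341 FPKM (log2 fold change 0.73, adjusted p = 0.0299, limma), and it overlaps Srrm2 on the other strand. Of the 5 TFIIS and elongin genes tested, it was the 1 that passed, and the median of the 5 was -0.07, or 0.078 with the GC trend removed.

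Alyref, an mRNA export adaptor in the list of PAF, FACT and Spt6 partners, rose from 47.6 and 47.5 FPKM in CTRL 1 and 2 to 62.7 and 63.1 FPKM in KO 1 and 2 (a log2 fold change of 0.40, adjusted p = 0.0346, limma), and the other 3 genes of that list did not pass. Pcf11, which takes part in cleavage of the transcript and in release of the polymerase, fell from 37.6 and 36.3 FPKM to 30.6 and 29.8 FPKM (log2 fold change -0.28, adjusted p = 0.0466, limma). It was the 1 of 8 termination factors past the threshold, a share of 12.5% beside 9.75% of all genes tested. Of the 8, 7 were below 0, or 6 after median-ratio scaling, and of all 11399 genes tested 6128 were below 0. Like Cdk9, all 5 called pathway genes lost their calls when any 1 library was left out, as did nearly all called genes of the whole table. All 5 also lost them when every gene above 0 was tested (adjusted p between 0.0860 and 0.0953, limma), where 0 of 19888 genes were called. Polr2f lost its call as well with limma-voom (adjusted p = 0.0512), with quantile normalization (0.0588), with the length trend removed (0.0617) and without the variance trend (0.0697). Pcf11 lost its call with median-ratio scaling (adjusted p = 0.0513, limma), without the variance trend (0.06945), and with the length trend (0.0748) or the GC trend (0.0716) removed.

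No gene passed in the other 5 lists. Among 10 genes of P-TEFb control, the largest difference was a log2 fold change of 0.28 for Hexim2, an inhibitor of P-TEFb. Hexim2 stood near the filter, at 0.844 and 1.17 FPKM in CTRL and 1.41 and 1.46 FPKM in KO, where the added 1 weighs most. Among 5 genes around Cdk12 and Cdk13, the largest was -0.31 for Cdk7, the kinase of TFIIH. Ell2, an elongation factor of the super elongation complex, was at 0.31 among 8 tested genes of that complex. Aff4, a scaffold of the same complex that was picked after its value had been seen, was at -0.31 (adjusted p = 0.0558, limma). Rprd1a, which binds the polymerase tail, was at -0.25 among 8 tested genes of tail phosphatases and their partners. Hdgfl2, a reader of methylated H3K36, was at -0.21 among 4 readers, and their median was -0.06. Adjusted p for Hexim2, Cdk7, Ell2, Rprd1a and Hdgfl2 ran from 0.0868 for Hdgfl2 to 0.298 for Rprd1a (limma).

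**Figure D4:**
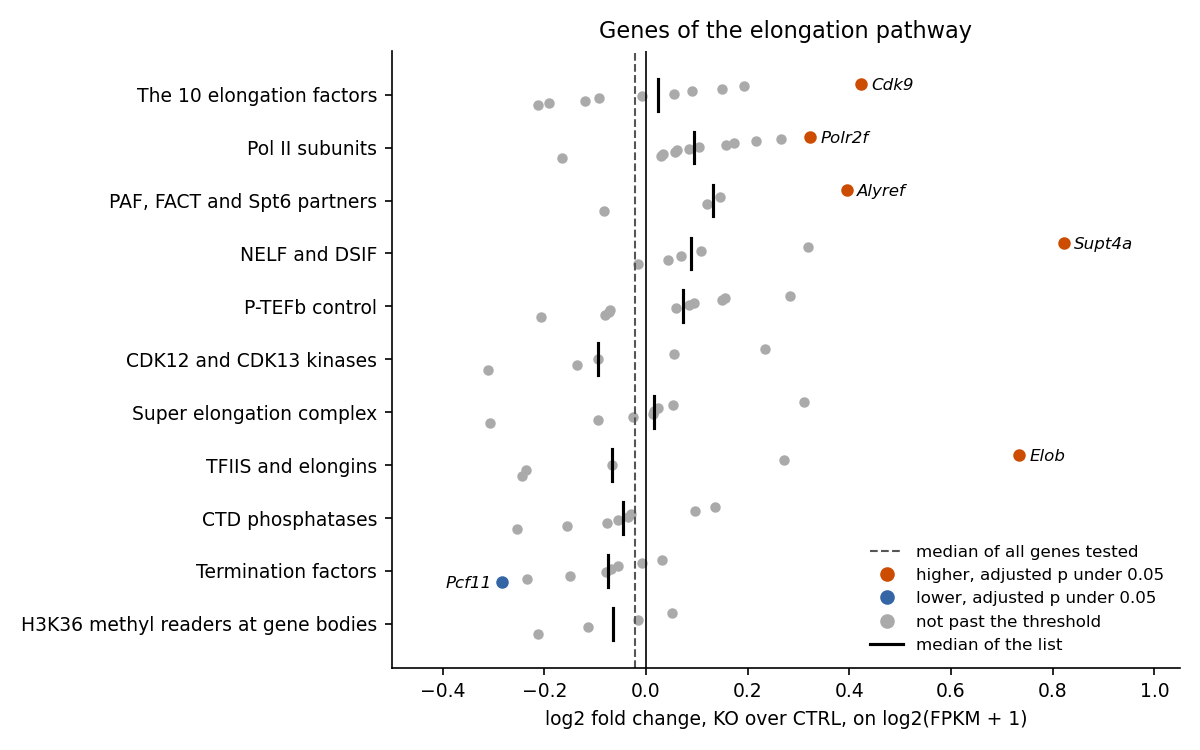
Log2 fold change of KO over CTRL on the log2(FPKM + 1) scale for the tested genes of each list, 1 point a gene, with called genes in colour and named, a black bar at the median of each list and a dashed line at the median of all genes tested. Supt4a at 0.82 and Elob at 0.73 lie farther from 0 than Cdk9 at 0.42, and Pcf11 at -0.28 is the only gene called lower.

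Markers of dividing cells moved with genotype beside these results. Of 12 proliferation markers, 10 rose, among them Top2a, Cdk1 and Mcm3, and 0 fell. The share called was 83.3%, beside 9.75% of all genes tested. The sum of the 12 was 551 and 474 FPKM in CTRL 1 and 2 and 748 and 734 FPKM in KO 1 and 2. The part of these markers in the rise of Cdk9, Supt4a, Elob, Alyref and Polr2f was not tested. In bulk RNA, a larger share of cells with a transcript and more of it per cell cannot be told apart.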

How the data were processed

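Oligo(dT)-selected RNA of CD3+CD4+YFP+ splenic Treg cells was sequenced in read pairs. Per the labels and methods, the authors mapped reads to mm10 (GRCm38) with HISAT2 2.2.1, counted them per gene with featureCounts 2.0.1, and deposited FPKM values. Gene lengths behind the FPKM, annotation version, strand use and the treatment of multi-mapped reads are not given in the sources used here. Control columns named WT were read as the CTRL libraries of the same number.

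KO was compared with CTRL by limma 3.58.1 (R 4.3.3, lmFit and eBayes with trend) on log2(FPKM + 1) for 11399 genes (FPKM at or above 1 in 2 or more libraries). All tests were two-sided, with Benjamini-Hochberg adjustment over all genes tested and a threshold of 0.05. Fold changes understate those of low genes, and precision is set by 2 libraries per genotype. No count test was run on the deposited FPKM. An exact permutation test of 2 against 2 libraries cannot go below p = 0.333. Ratios of FPKM between libraries were those of whole numbers (tolerance 0.002 reads) for 99.995% of 19888 genes, and the smallest such numbers were taken as reads. They are lower bounds and speak to counting error only.

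The 10 factors and all lists were chosen with earlier results of these data known. Named genes were the 10 factors, Setd2 and, of each pathway list, the called genes (at most 4) or, where none passed, the gene with the largest absolute fold change. Partners in the same complex were added after their values had been seen. Positions, exon lengths, overlaps and shared stretches of 100 bases were taken from the GENCODE vM21 annotation (GRCm38), where 24062 of 24087 genes were found. The value of 1 erythroid marker is not reported here, though the summed level includes it. The procedure was tested on simulated data. The alternatives were another pseudocount, filter, scaling or variance model, the replicate block, limma-voom on recovered reads, removal of exon length or GC trends, and leaving out each library.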

Additional observations from a re-analysis of the deposited data

How the results depend on the processing

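No factor changed to a call in the opposite direction under the 16 alternatives, and Setd2, at -0.30 to -0.15, passed the threshold under none. Cdk9 kept its call under 11 of the 12 alternatives that use all libraries. The median log2 fold change of the 10 factors ran from -0.01 to 0.05 under those 12, and from -0.027 to 0.024 with a library left out. Directions turned only for factors that were not called: Supt6 became 0.017 with median-ratio scaling and 0.053 with the length trend removed and ran from -0.037 to 0.024 with a library left out, Paf1 ran from -0.034 to 0.14 with a library left out, and Cdc73 became 0.032 with the length trend and 0.048 with the GC trend removed. With all genes above 0 tested, 0 factors, 0 pathway genes and 0 genes in all were called (limma, 2212 higher and 2251 lower at unadjusted p under 0.05). With a library left out, 1 residual degree of freedom remained, the lone library being assumed to vary like the others. Then 0 factors and 0 pathway genes were called in either direction, and 0 to 1 genes higher and 0 to 1 lower in all. Pathway genes called higher numbered 4 in the text and 7 with a mean FPKM above 5 or with robust eBayes. Those called lower numbered 1 in the text, 2 with a mean FPKM above 5, robust eBayes or limma-voom, and 0 with median-ratio scaling, without the variance trend, or with the length or GC trend removed. Of all genes, 581 were called higher and 530 lower, against 315 higher without the variance trend, 1027 lower with limma-voom and 332 lower with the length trend removed. The labels share replicate numbers but tie no 2 libraries together, and deviations of same-numbered libraries correlated at 0.342 (Pearson) and 0.0553 (Spearman) over genes. With the replicate block, 968 genes were called higher and 805 lower, and Cdk9 remained the called factor (adjusted p = 0.0172, limma). The causes of these shifts were not tested.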
